A study of Schizosaccharomyces pombe with 12 samples.

Results

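Small nucleolar RNA (snoRNA) genes were followed in poly(A)-selected RNA of Schizosaccharomyces pombe, the fission yeast, in strains lacking med20, rrp6 or both. The members are all genes that the authors' deposited tables type as snoRNA, 51 of 6888 genes in the tables of rrp6Δ and med20Δ and 48 of 6871 in that of the double mutant, where snR5, snR41 and snoZ5 are not listed. Box class was read from the product text, which names 18 members as box H/ACA and 1, snoZ30, as box C/D and states no class for the other 32. The groups, with 3 samples each, were the med20Δ rrp6Δ double mutant (med20:natMX, rrp6Δ::KanMx6, leu1-32, with ura4-D18, ura4-D19 and ura4-D20 written for its 3 samples), rrp6Δ (rrp6Δ::KanMx6 in h- cells with Leu1-32, His2, Ura4 DS/E, an entry written 216, and an ura+ insertion at Otr1R), med20Δ (h+, leu1-32, ura4-D18, med20:NAT) and wild type (h-, written L972, L973 and L974). All were grown in YEA, a rich medium, at 30 degrees and harvested in log phase. The mutants thus also carried auxotrophic alleles not named for wild type, and mating type differed between med20Δ and the rrp6Δ and wild-type strains.

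snoRNAs guide the chemical modification of ribosomal RNA. Box C/D snoRNAs guide methylation of riboses and box H/ACA snoRNAs guide the conversion of uridine to pseudouridine, while a few, such as U3, U14 and snR30/U17, are needed for the cuts that release the small-subunit rRNA. They are cut or trimmed out of longer transcripts, and Rrp6, an exonuclease of the nuclear exosome, trims their 3′ ends and degrades precursors, some of which carry a short poly(A) tail. Med20 belongs to Mediator, a large coactivator through which regulators act on RNA polymerase II. The mature forms have no poly(A) tail, so in libraries selected with oligo(dT) the amount of a snoRNA and the share of it that is tailed or escaped selection cannot be told apart.

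The sequences of 11 members on which the results turn are shown 5′ to 3′ as RefSeq gives them (build ASM294v3), to which all 51 members were matched by systematic ID. Capitals mark, in the H/ACA members sno12, snR42 and snR91, the ACA within the last 10 bases, by which that class is named. In the others they mark the terminal letters of the C/D class, TGATGA (box C) within the first 25 bases and CTGA (box D) within the last 15. sno20, named H/ACA, has no ACA in that window and so carries no capitals, and snoR47 has CTGA but not TGATGA.
sno12: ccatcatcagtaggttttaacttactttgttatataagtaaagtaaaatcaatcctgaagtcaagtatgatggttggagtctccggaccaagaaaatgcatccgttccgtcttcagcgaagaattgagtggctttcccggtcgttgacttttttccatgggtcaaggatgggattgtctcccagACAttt
sno20: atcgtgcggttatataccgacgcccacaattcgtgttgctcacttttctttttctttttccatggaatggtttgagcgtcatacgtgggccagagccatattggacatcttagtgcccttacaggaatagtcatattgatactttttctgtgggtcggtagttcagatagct
snR42: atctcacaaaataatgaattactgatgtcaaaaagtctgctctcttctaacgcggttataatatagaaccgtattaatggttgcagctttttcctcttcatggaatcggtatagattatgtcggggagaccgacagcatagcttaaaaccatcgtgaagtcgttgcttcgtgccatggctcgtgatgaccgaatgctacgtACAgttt
snR91: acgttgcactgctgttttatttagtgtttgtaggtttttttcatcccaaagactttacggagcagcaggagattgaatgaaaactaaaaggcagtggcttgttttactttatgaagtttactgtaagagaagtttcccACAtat
snoR69b: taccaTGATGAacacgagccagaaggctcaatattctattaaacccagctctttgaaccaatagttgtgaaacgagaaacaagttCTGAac
snoZ16: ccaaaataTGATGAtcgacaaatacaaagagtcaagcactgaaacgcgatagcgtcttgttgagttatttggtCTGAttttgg
snr79: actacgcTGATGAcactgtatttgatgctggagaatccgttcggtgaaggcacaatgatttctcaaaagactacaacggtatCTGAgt
snoR38: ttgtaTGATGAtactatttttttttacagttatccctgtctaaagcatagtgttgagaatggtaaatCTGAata
snoU18: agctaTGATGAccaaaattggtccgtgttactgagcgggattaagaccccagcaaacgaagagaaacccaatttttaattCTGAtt
snoR47: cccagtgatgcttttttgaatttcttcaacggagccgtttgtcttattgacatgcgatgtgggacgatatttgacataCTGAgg
snoU14: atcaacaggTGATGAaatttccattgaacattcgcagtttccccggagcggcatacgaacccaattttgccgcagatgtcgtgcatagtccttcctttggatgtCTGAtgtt

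In ASM294v3 these lie at the following places: sno12 at chrIII:583416-583605 (plus strand), sno20 at chrII:2411190-2411361 (plus strand), snR42 at chrII:1917406-1917613 (plus strand), snR91 at chrI:3316466-3316609 (minus strand), snoR69b at chrI:4154912-4155002 (plus strand), snoZ16 at chrI:1234963-1235045 (plus strand), snr79 at chrI:2705950-2706037 (plus strand), snoR38 at chrI:5144133-5144206 (plus strand), snoU18 at chrII:2720648-2720733 (minus strand), snoR47 at chrII:3654333-3654416 (minus strand) and snoU14 at chrII:1308634-1308745 (plus strand). TGATGA near the start together with CTGA near the end was found, on the sense strand, in 17 of 51 members, 16 of them without a stated class and none of them H/ACA, against 0.0876% of 12555 other annotated genes. ACA within the last 10 bases was found in 15 of the 18 H/ACA members and in 4 without a stated class, against 13.5% of the other genes. H/ACA members had 142 to 488 bases, with a median of 170, and those without a stated class 73 to 653, with a median of 85.

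Whole counts per library were recovered from the deposited means, 5135274 to 9159096 per library over 6483 to 6526 genes, and divided by the size factor of their library to give normalised counts, given in the order of libraries 1, 2 and 3. The targeted genes went with the labels: rrp6 had normalised counts of 0.865 to 1.82 in the double mutant, 0.813 to 2.85 in rrp6Δ, 1188 to 1503 in med20Δ and 1122 to 2166 in wild type. Those of med20 were 19.9 to 29.1 in the double mutant, 544 to 649.9 in rrp6Δ, 2.55 to 6.35 in med20Δ and 688 to 743 in wild type. ura4 went against a label, with 2121 to 2791 in the libraries labelled med20Δ ura4-D18, against 2063 to 2736 in wild type, while it had 1.82 to 5.19 in the double mutant. In each strain 1 library stood apart from the other 2 over genes of other types (library 2 of the double mutant and of rrp6Δ, library 1 of med20Δ and of wild type), along a component that held 47.9% of the spread within strains. Library numbers follow the recovered step and carry no pairing across strains. A library never had fewer than 1 count, so a wild-type level of 1 count per library (3 over the group) is a floor, and a fold against it is a lower bound. No source used here says whether 1 was added to every count before deposit, in which case each count printed would be 1 lower and a count of 1 would be no read.

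Summed over all listed members, normalised counts were 45286, 58290 and 36487 in the double mutant, 14063, 19460 and 10941 in rrp6Δ, 3653, 5123 and 3524 in med20Δ, and 2312, 2724 and 2470.0 in wild type. Each strain's libraries lay above all of the strain named after it. sno12 alone made up much of this: without it the sums averaged 16935 ± 4602 in the double mutant, 7160 ± 979.7 in rrp6Δ, 3539 ± 949 in med20Δ and 2161 ± 371 in wild type (SD, n = 3 each).

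In rrp6Δ, 13 of 51 snoRNA genes rose against wild type and none fell (DESeq adjusted p under 0.05 in the authors' deposited table), while 4.97% of all genes in the table rose and 1.00% fell. At an unadjusted p under 0.05 there were 19, beside 14.2% of all genes in the table, and limma, run on the recovered counts, called 13 higher and 0 lower, with 6.33% and 1.73% of all genes it tested. Of the members, 42 had a positive log2 fold change in the authors' deposited table, and the median was 0.63, beside −0.04 over all genes in the table and −0.12 over protein-coding genes. The count of positive signs is partly set by the floor, as 7 members at 1 count in each wild-type library could not go lower. The share of positive signs over all genes was not taken.

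The 6 largest rises that passed in rrp6Δ were those of H/ACA members. sno12 had normalised counts of 5826, 13138 and 4021 in rrp6Δ, against 545, 221 and 257 in wild type, a 23.2-fold difference in the authors' deposited table (DESeq adjusted p = 0.00429). snR91 had 2082, 2219.9 and 1787 in rrp6Δ, against 72.2, 126 and 99.2 in wild type, 21.3-fold in the authors' deposited table (DESeq adjusted p = 2.07e-29). For both, every rrp6Δ library was above every wild-type one, and the 3 rrp6Δ libraries of snR91 lay close together while those of sno12 spread more than 3-fold. Such separation was seen for 18 of 51 members, beside 13.9% of 6410 genes with counts in all 12 libraries. snR98 had 608, 363 and 501 in rrp6Δ, against 3.39, 37.3 and 33.9 in wild type, 20.5-fold in the authors' deposited table (DESeq adjusted p = 1.68e-16). snR42, which shares its name with a guide of large-subunit rRNA pseudouridylation in Saccharomyces cerevisiae, had 259, 95.2 and 175 in rrp6Δ, against 2.26, 14.7 and 14.4 in wild type, 17.5-fold in the authors' deposited table (DESeq adjusted p = 0.000124). snR95 had 147, 118 and 107 in rrp6Δ, against 5.64, 11.3 and 7.83 in wild type, 15.6-fold in the authors' deposited table (DESeq adjusted p = 8.94e-14). These 3 also had no overlap between the libraries of the strains. sno20 had 187, 153 and 105 in rrp6Δ, against 10.2, 12.4 and 18.3 in wild type, 11.3-fold in the authors' deposited table (DESeq adjusted p = 2.53e-10). snR33, also named after a large-subunit guide of S. cerevisiae, had 1051, 601 and 675 in rrp6Δ, against 59.8, 175 and 99.2 in wild type, 7.23-fold in the authors' deposited table (DESeq adjusted p = 2.31e-06). snR36, whose S. cerevisiae namesake guides pseudouridylation of the small-subunit rRNA, had 132, 117 and 104 in rrp6Δ, against 36.1, 33.9 and 53.5 in wild type, 2.96-fold in the authors' deposited table (DESeq adjusted p = 0.00232). All 3 were again higher in each rrp6Δ library than in any wild-type one. By limma snR36 had an adjusted p of 0.0486, which lay between 0.0089 and 0.175 when 1 library was left out, above 0.05 for 9 of the 12.

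The other members that rose in rrp6Δ were snr79, snoR38 and snoR69b, all with C/D-type ends, and snR30 and sno16. snr79, whose S. cerevisiae namesake guides methylation of the small-subunit rRNA, had 55.3, 23.8 and 62.4 in rrp6Δ, against 1.13, 5.66 and 7.83 in wild type, 10.1-fold in the authors' deposited table (DESeq adjusted p = 0.00118). snR30, in S. cerevisiae an H/ACA RNA needed for small-subunit rRNA processing, had 274, 96.1 and 254 in rrp6Δ, against 12.4, 49.8 and 44.4 in wild type, 6.10-fold in the authors' deposited table (DESeq adjusted p = 0.0119). sno16 had 119, 62.8 and 93.5 in rrp6Δ, against 11.3, 29.4 and 40.5 in wild type, 3.52-fold in the authors' deposited table (DESeq adjusted p = 0.0034), and its limma adjusted p was 0.0666. The strains did not overlap for any of the 3. snoR69b had 389.6, 284 and 386 in rrp6Δ, against 92.5, 162 and 191 in wild type, 2.47-fold in the authors' deposited table (DESeq adjusted p = 0.0035). By limma its adjusted p was 0.0487, between 0.0203 and 0.173 when 1 library was left out, above 0.05 for 9 of the 12. snoR38 averaged 24.5 ± 10.8 in rrp6Δ and 3.88 ± 1.57 in wild type (SD, n = 3 each), 6.57-fold in the authors' deposited table (DESeq adjusted p = 0.012), the lowest level among the 13. Its limma call (adjusted p = 0.0171) ended without any 1 of 3 of the 12 libraries (adjusted p up to 0.0862). That of snR30 (adjusted p = 0.0353) ended without any 1 of 4 (adjusted p up to 0.153). snR3, also H/ACA, had 23.6, 65.7 and 15.1 in rrp6Δ, against 3.39, 1.13 and 1.31 in wild type, did not pass in the authors' deposited table (DESeq adjusted p = 0.0943) and passed by limma (adjusted p = 0.00175).

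**Figure D1:**
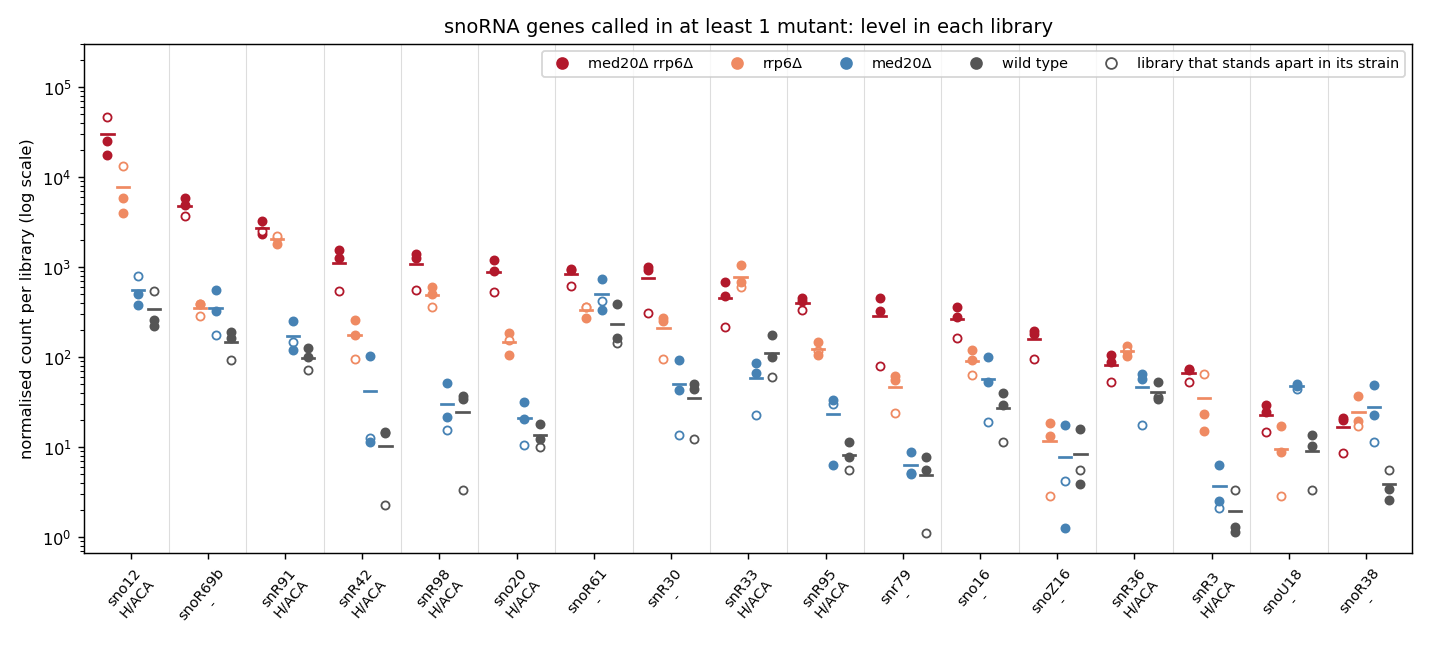
Normalised count on a log scale for the 17 snoRNA genes called in at least 1 mutant, with a point per library, a bar at the mean and strains from left to right as in the legend. Open points are the libraries that stand apart, and the box class stands under each name (- where none is stated). For sno12, the libraries of the double mutant (17703 to 46595) lie above those of rrp6Δ (4021 to 13138), and both lie above those of wild type (221 to 545).

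In the double mutant, 14 of 48 listed snoRNA genes rose against wild type and none fell (DESeq adjusted p under 0.05), while 8.59% of all genes in the table rose and 6.71% fell. At an unadjusted p under 0.05 there were 20, beside 27.7% of all genes in the table. limma called 16 higher and 1, snoR47, lower, with 15.3% of all genes it tested higher and 14.6% lower. The call of snoR47 ended without library 2 of wild type (limma adjusted p = 0.0604). The median log2 fold change of members in the authors' deposited table was 1.18, beside −0.03 over all genes in the table and −0.18 over protein-coding genes. This comparison shares its wild-type samples with that of rrp6Δ.

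Among H/ACA members, sno12 reached 24961, 46595 and 17703 in the double mutant, 89.9-fold over wild type in the authors' deposited table (DESeq adjusted p = 1.61e-07). snR42 had 1536, 538 and 1259, 109.7-fold in the authors' deposited table (DESeq adjusted p = 6.18e-09). sno20 had 1206, 529.7 and 902, 66.6-fold in the authors' deposited table (DESeq adjusted p = 6.27e-11). These were the 3 largest fold changes of the family, and none of their libraries overlapped those of wild type given above. All libraries of the double mutant lay above all wild-type ones for 23 of 48 members, beside 20.8% of 6410 genes. snR95 had 454, 331 and 421, 50.1-fold in the authors' deposited table (DESeq adjusted p = 1.11e-24). snR98 had 1265, 550.4 and 1395, 44.2-fold in the authors' deposited table (DESeq adjusted p = 2.19e-08). snR3, named after a large-subunit guide of S. cerevisiae, had 73.9, 52.8 and 71.4 in the double mutant, against 3.39, 1.13 and 1.31 in wild type, 35.1-fold in the authors' deposited table (DESeq adjusted p = 2.85e-09). In each of these 3 the lowest library of the double mutant was above the highest of wild type. snR91 had 2353, 2518 and 3237, 28.1-fold in the authors' deposited table (DESeq adjusted p = 3.53e-26). snR33 had 475, 215 and 681 in the double mutant, 4.22-fold in the authors' deposited table (DESeq adjusted p = 0.0426). snR36, called in rrp6Δ, had 107, 52.8 and 89.1 in the double mutant and did not pass in the authors' deposited table (DESeq adjusted p = 0.112).

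Among members that the product text does not name H/ACA, snoR69b had 5785, 3693 and 4877 in the double mutant, 33.2-fold over wild type in the authors' deposited table (DESeq adjusted p = 1.43e-26). snr79 had 456, 79.6 and 326, 60.9-fold in the authors' deposited table (DESeq adjusted p = 0.000855), with library 2 far below the other 2. snoZ16 had 196, 96.1 and 182 in the double mutant, against 5.64, 15.8 and 3.92 in wild type, 19.2-fold in the authors' deposited table (DESeq adjusted p = 3.55e-08). All libraries of the double mutant were above all of wild type for these 3. snR30 had 1011, 312 and 936, 21.8-fold in the authors' deposited table (DESeq adjusted p = 0.000154). sno16 had 361, 162 and 278, 10.2-fold in the authors' deposited table (DESeq adjusted p = 1.87e-05). snoR61, annotated as a transcript of 653 bases, had 935, 616 and 953 in the double mutant, against 143, 394 and 164 in wild type, 3.68-fold in the authors' deposited table (DESeq adjusted p = 6.5e-05). None of these overlapped wild type either. snoR38 had 19.99, 8.65 and 21.2, against 5.64, 3.39 and 2.61 in wild type, and did not pass in the authors' deposited table (DESeq adjusted p = 0.12), though it passed by limma (adjusted p = 0.0246). That limma call ended without any 1 of 4 of the 12 libraries (adjusted p up to 0.0922).

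In med20Δ, 1 of 51 snoRNA genes, snoU18, rose against wild type and none fell (DESeq adjusted p under 0.05), while 1.12% of all genes in the table rose and 1.25% fell, so the members' share was near the background in the upward direction. At an unadjusted p under 0.05 there were 5, beside 10.4% of all genes in the table, and limma called 2 higher, snoU18 and snoR38, and 0 lower, with 2.19% and 1.97% of all genes it tested. Of the members, 42 had a positive log2 fold change in the authors' deposited table, with a median of 0.58 beside −0.00 over all genes in the table. Some of these signs were set by the floor, as 7 members at 1 count in each wild-type library could not go lower. Among them, snoZ5, snR41, snoR54b and snoR68 had a log2 fold change of only 0.006. The share of positive signs over all genes was not taken. All med20Δ libraries lay above all wild-type ones for 8 of 51 members, beside 10.2% of 6410 genes. snoU18, a guide of large-subunit rRNA methylation in other eukaryotes, had 43.9, 48.4 and 50.8 in med20Δ, against 3.39, 13.6 and 10.4 in wild type, 5.20-fold in the authors' deposited table (DESeq adjusted p = 0.0046). The lowest med20Δ library was more than 3 times the highest of wild type, and the 3 med20Δ libraries were close together. It had 29.1, 14.7 and 24.7 in the double mutant (adjusted p = 0.219 in the authors' deposited table) and 8.95, 2.85 and 17.01 in rrp6Δ (adjusted p = 1, in the same source). snoR38 had 11.5, 49.7 and 22.9 in med20Δ, 7.16-fold over wild type in the authors' deposited table (DESeq adjusted p = 0.291), and passed by limma (adjusted p = 0.0272). By limma, leaving out library 2 of med20Δ or library 3 of wild type ended all upward calls of members in this comparison, and leaving out any other single library gave 1 to 3. The limma call of snoU18 (adjusted p = 0.0295) ended without any 1 of 5 of the 12 libraries (adjusted p up to 0.105). That of snoR38 ended without any 1 of 4 (adjusted p up to 0.13).

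snR101 and snoU14, both among the 5 members with the highest deposited wild-type mean, not scaled for length, did not pass in any of the authors' deposited tables. snR101 had 679, 777 and 646 in the double mutant, 731, 826 and 657 in rrp6Δ and 675, 713 and 832 in med20Δ, against 500.0, 466 and 519.6 in wild type. Each mutant library was above each wild-type one, by 1.46-fold in the double mutant, 1.55-fold in rrp6Δ and 1.49-fold in med20Δ in the authors' deposited tables (DESeq adjusted p = 0.354, 0.36 and 0.566 in that order). The lowest limma adjusted p of snR101 was 0.0501, in the double mutant. snoU14 had 479, 556 and 471 in the double mutant, 159, 268 and 229 in rrp6Δ and 793, 632 and 534 in med20Δ, against 495, 287 and 386 in wild type. Its rrp6Δ libraries lay below all of wild type and its med20Δ libraries above all of wild type, with limma adjusted p of 0.0676 and 0.131. Of 6410 genes, 20.8% lay wholly above wild type in the double mutant, 13.9% in rrp6Δ and 10.2% in med20Δ. In rrp6Δ, 14.3% lay wholly below.

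**Figure D2:**
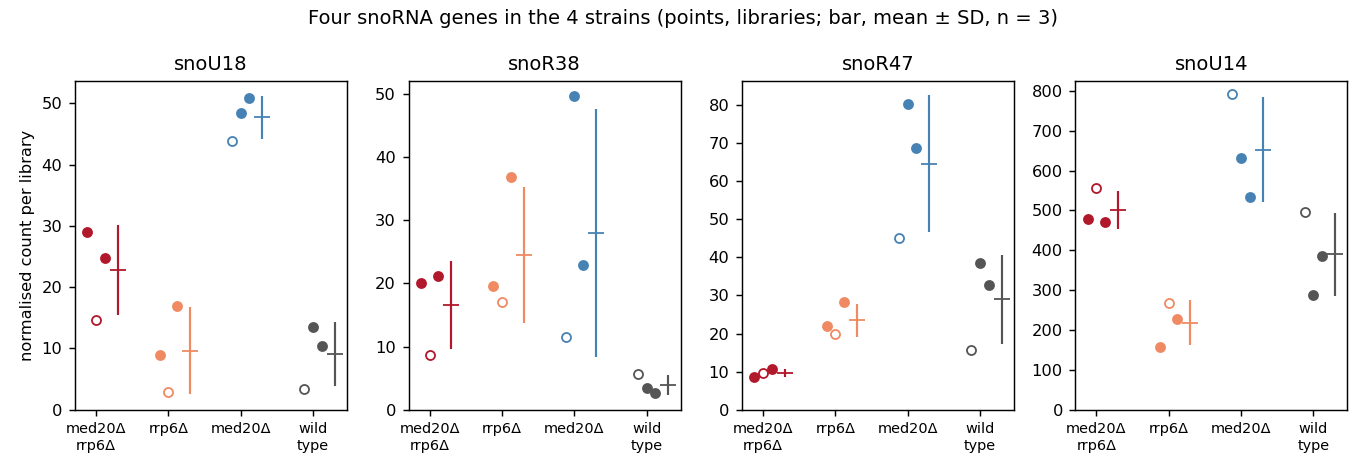
Normalised count per library on a linear scale for snoU18, snoR38, snoR47 and snoU14 in the double mutant, rrp6Δ, med20Δ and wild type, with the mean ± SD (n = 3) beside the points and open points for libraries that stand apart. snoU18 is highest in med20Δ (43.9 to 50.8), and snoR47 is lowest in the double mutant (8.48 to 10.6).

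Loss of med20 in cells without rrp6 was tested by setting the double mutant against rrp6Δ with limma on the recovered counts, over 5832 genes that included 32 of the 51 members. Among those 32, 8 rose and none fell, while 4.42% of all genes tested rose and 3.70% fell. The median log2 difference of the 32 was 0.93, beside −0.03 over all genes tested. snoR69b differed most firmly, at 4785 ± 1049 in the double mutant and 353 ± 60.3 in rrp6Δ (SD, n = 3 each), a limma log2 difference of 3.75 (SE 0.37, adjusted p = 6.29e-05). snoZ16 averaged 158 ± 54.1 in the double mutant and 11.6 ± 8.05 in rrp6Δ, a log2 difference of 3.89 (SE 0.78, adjusted p = 0.00842 by limma). sno20 averaged 879 ± 339 in the double mutant and 148 ± 41.3 in rrp6Δ, a log2 difference of 2.52 (SE 0.41, adjusted p = 0.0025 by limma). For these 3, no library overlapped between the strains and no single library left out ended the call. The double mutant lay wholly above rrp6Δ for 16 of 48 members, beside 14.8% of 6410 genes. sno12 averaged 29753 ± 15030.1 in the double mutant and 7662 ± 4828 in rrp6Δ, a log2 difference of 2.02 (SE 0.47, adjusted p = 0.0184 by limma). snoU14 averaged 502 ± 47.3 in the double mutant and 219 ± 55.5 in rrp6Δ, a log2 difference of 1.23 (SE 0.26, adjusted p = 0.0106 by limma). These limma calls were less firm: that of sno12 ended without library 1 or 3 of rrp6Δ or library 1 or 2 of the double mutant (adjusted p up to 0.0958), and that of snoU14 without library 1 of rrp6Δ (adjusted p = 0.0516). The remaining 3, snr79 (log2 difference 2.36), snR95 (1.69) and snoR61 (1.32), passed with limma adjusted p of 0.0441, 0.0488 and 0.0462, and leaving out any of 9, 8 and 7 of the 12 libraries ended their calls.

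The count of 8 depended on single libraries. It was 3 without library 1 of rrp6Δ, 5 without its library 2 and 4 without its library 3, and 4 and 5 without libraries 1 and 3 of the double mutant. Without the 4 libraries that stand apart it was 14, with 1 member, snoR47, lower. Shares of all genes called with libraries left out are not given here. snR42, with a limma log2 difference of 2.63 (adjusted p = 0.0566), was among those just outside the threshold. At the other end, snoR47, snR33 and snR93 had the lowest differences between the deposited log2 fold changes of the double mutant and of rrp6Δ. snR33 averaged 457 ± 233 in the double mutant and 776 ± 241 in rrp6Δ, and its libraries overlapped (adjusted p = 0.326 by limma). snR93 averaged 82.2 ± 38.8 in the double mutant and 119.6 ± 49.6 in rrp6Δ, and also overlapped (adjusted p = 0.612 by limma). snR91, which was high in both strains, had a log2 difference of 0.41 (SE 0.28, adjusted p = 0.401 by limma).

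**Figure D3:**
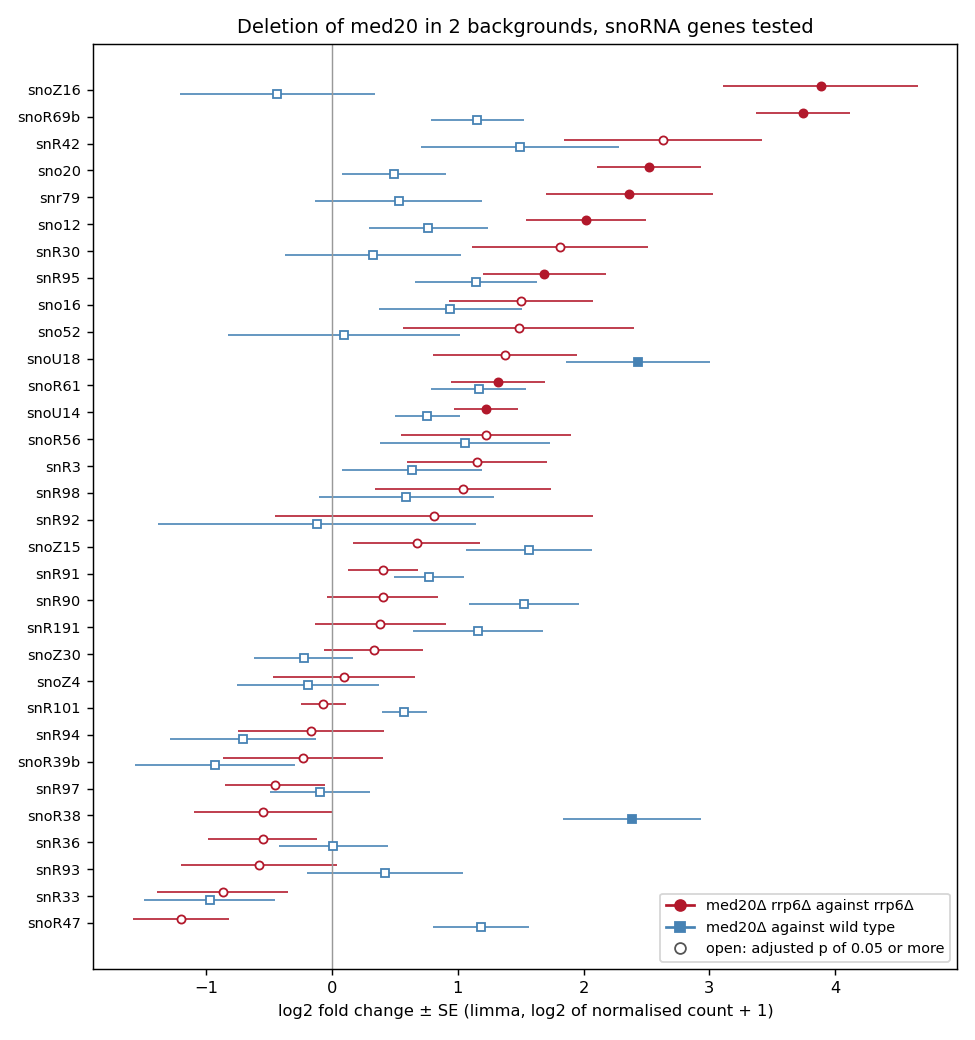
limma log2 fold change ± SE of the 32 snoRNA genes tested, with circles for the double mutant against rrp6Δ and squares for med20Δ against wild type. Filled symbols passed at an adjusted p under 0.05. snoZ16 lies at 3.89 in the first comparison and at −0.44 in the second, while snoR38 and snoR47 lie below 0 in the first and above 0 in the second.

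Set against med20Δ, the double mutant had 15 members higher and 1, snoR47, lower by limma, while 8.97% of all genes tested were higher and 4.68% lower. The members higher were sno12, sno20, snR3, snR33, snR42, snR91, snR92, snR94, snR95 and snR98, all H/ACA, with snoR69b, snoZ16, snr79, snR30 and sno16. sno20 averaged 879 ± 339 in the double mutant and 20.9 ± 10.7 in med20Δ (SD, n = 3 each), a log2 difference of 5.38 (adjusted p = 3.8e-06 by limma). snoR47 had 8.48, 9.52 and 10.6 in the double mutant, against 44.98, 80.2 and 68.6 in med20Δ, a log2 difference of −2.60 (adjusted p = 0.000692 by limma).

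Whether the effect of med20 deletion differed between cells without and with rrp6 was tested as an interaction. No member passed by limma, where 0.154% of all genes tested had a positive and 0.0857% a negative interaction, and 6 members had an unadjusted p under 0.05, beside 408 of all 5832 genes tested. The lowest limma adjusted p was that of snoR69b (interaction 2.59 on the log2 scale, SE 0.53, adjusted p = 0.0811). The interaction of snoR69b passed without the 4 libraries that stand apart (limma adjusted p = 0.0331). Leaving out the library furthest from the others in each strain can itself lower the spread, so no conclusion is drawn from that pass. Next by limma came snoR47 (−2.39, SE 0.54, adjusted p = 0.0999), snoZ16 (4.32, SE 1.10, adjusted p = 0.194) and snoR38 (−2.94, SE 0.78, adjusted p = 0.202).

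By box class, 8 of the 18 H/ACA members rose in rrp6Δ and 8 of 17 listed in the double mutant, with none in med20Δ, while 4.97%, 8.59% and 1.12% of all genes rose in these comparisons in that order. The median log2 fold change of H/ACA members in the authors' deposited tables was 2.08 in the double mutant, 2.24 in rrp6Δ and 0.58 in med20Δ. Over the 15 H/ACA members that limma tested, which leaves out 3 with few counts, limma medians were 3.97 in the double mutant, 3.16 in rrp6Δ and 0.57 in med20Δ, so the order of the first 2 strains turned. Of the 33 members not named H/ACA, 5 rose in rrp6Δ, 6 of 31 listed rose in the double mutant and 1 rose in med20Δ, a share near that of all genes. Their medians in the authors' deposited tables were 1.03 in the double mutant, 0.38 in rrp6Δ and 0.67 in med20Δ. limma tested only 17 of the 33, as the rest had few counts, so the shares of the 2 classes rest on unlike detection. Over these 17, limma medians were 1.35 in the double mutant, 0.47 in rrp6Δ and 0.94 in med20Δ. limma called 7 of the 17 higher and 1 lower in the double mutant and 4 higher in rrp6Δ. Of the 15 H/ACA members tested it called 9 higher in each. Of all genes tested, 15.3% and 6.33% were higher. These 33 include snR30, which has no stated class but has ACA near its end. The 17 with C/D-type ends had 3 that rose in rrp6Δ, 3 of 16 listed in the double mutant and 1 in med20Δ. Of H/ACA members, 17 of 18 had a positive log2 fold change in rrp6Δ in the authors' deposited table. The exception was snR46, which had 1 count in each rrp6Δ library and 3, 1 and 1 in wild type. Among the 17, snR5 stood at 1 count in each wild-type library and could not go lower.

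**Figure D4:**
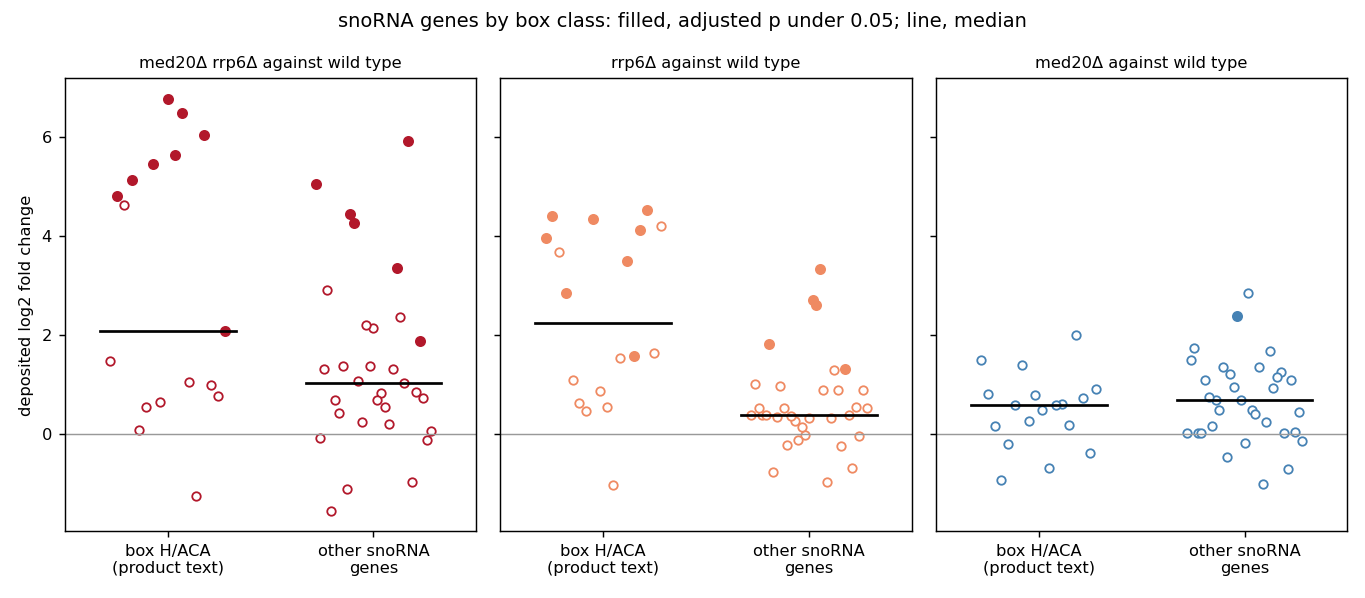
Deposited log2 fold change against wild type of each snoRNA gene in the double mutant, rrp6Δ and med20Δ, for box H/ACA members by product text and for all others. Filled points had an adjusted p under 0.05 and lines are medians. In rrp6Δ the H/ACA median is 2.24 and that of the others 0.38, and in med20Δ they are 0.58 and 0.67.

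By genome context in RefSeq (ASM294v3), 10 members lie within introns of protein-coding genes, 14 lie within or overlap a longer non-coding transcript on the same strand and 27 overlap no gene on their strand. Of the 27, 10 rose in rrp6Δ and 11 of 26 listed rose in the double mutant. The 27 are free of overlap only by RefSeq. Among them, snoZ16, snR30, snR90 and snR95 each have another deposited entry, counted as a gene of its own, that RefSeq lists as a synonym. Of the 14, 2 rose in rrp6Δ and 3 of 12 listed in the double mutant. Over all genes, 4.97% rose in rrp6Δ, 8.59% in the double mutant and 1.12% in med20Δ. The 18 H/ACA members make up 13 of the 27 and 5 of the 14, so no intronic member is H/ACA. Of H/ACA members without overlap, 6 of 13 rose in rrp6Δ and 5 of 12 listed in the double mutant. Of those with a longer transcript, 2 of 5 and 3 of 5 rose. Of members not named H/ACA, 4 of 14 and 6 of 14 rose without overlap, and 0 of 9 and 0 of 7 listed with a longer transcript. Context and class were not tested apart. Of the 10 intronic members, snoR38 rose in rrp6Δ, none rose in the double mutant and snoU18 rose in med20Δ. The host of snoU18, ero11 (an oxidase of disulfide bond formation in the endoplasmic reticulum), had a log2 fold change of 1.60 in the double mutant (adjusted p = 0.000279), 0.27 in rrp6Δ (adjusted p = 0.838) and 0.99 in med20Δ (adjusted p = 0.0563) in the authors' deposited tables. In med20Δ snoU18 changed 5.20-fold and ero11 1.99-fold in the authors' deposited table. The host of snoR38, SPAC29A4.02c, had log2 fold changes of −0.87, −0.61 and 0.26 in the double mutant, rrp6Δ and med20Δ in the authors' deposited tables and did not pass in any. fta3, a kinetochore gene that hosts snoR47, did not pass either, with −0.10, 0.20 and 0.01 in the same order and source. Of the 10 hosts, ade4 and ero11 passed in that of the double mutant among the authors' deposited tables, ade4 with a log2 fold change of −1.05 (adjusted p = 0.0219), and none passed in rrp6Δ or med20Δ. In the table of the double mutant 8.59% of all genes rose and 6.71% fell, so 1 of 10 in each direction is near the background.

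Several members overlap a longer annotated transcript or have another entry that RefSeq lists as their synonym. They may share reads with it, but how such reads were counted is not stated in any source used here. The counts of both therefore cannot be told apart. SPNCRNA.814, which holds snR98, had deposited means of 1172 in the double mutant and 485 in rrp6Δ, near the 1129 and 483 of snR98 in the authors' deposited tables. SPNCRNA.901 overlaps snR91 and had 2901 and 2026 in the double mutant and rrp6Δ, beside 2846 and 1994 for snR91 in the authors' deposited tables. SPNCRNA.1394, which holds snR3, rose 58.3-fold in the double mutant (adjusted p = 2.65e-10) and 24.7-fold in rrp6Δ (adjusted p = 0.0206) in the authors' deposited tables. RefSeq lists SPNCRNA.727 as another name of snoZ16, but the files count it as a gene of its own, and it had far more counts. Its normalised counts were 3689, 2094 and 3047 in the double mutant, 133, 124 and 114 in rrp6Δ and 55.4, 257 and 67.3 in med20Δ, against 23.7, 32.8 and 47.00 in wild type. In the authors' deposited tables this was an 87.9-fold difference in the double mutant (adjusted p = 5.77e-24), 3.73-fold in rrp6Δ (adjusted p = 0.000118) and 3.64-fold in med20Δ (adjusted p = 0.741). SPNCRNA.906, another RefSeq name of snR30, rose 24.1-fold in the double mutant (adjusted p = 6.11e-05) and 6.63-fold in rrp6Δ (adjusted p = 0.0268) in the authors' deposited tables. SPNCRNA.1436, another name of snR95, rose 49.9-fold (DESeq adjusted p = 1.42e-19) in the double mutant and 22.2-fold (DESeq adjusted p = 3.76e-13) in rrp6Δ in the authors' deposited tables. SPNCRNA.1038, another name of snR90, rose in med20Δ by 3.03-fold (DESeq adjusted p = 0.00459 in the authors' deposited table), while snR90 itself changed 2.62-fold there and did not pass (adjusted p = 0.0887).

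Of 5 members inside exons of protein-coding genes on the opposite strand, 4 had fewer counts than those genes. snoR02 had a deposited wild-type mean of 1.00 beside 1597 for alg3, and snR97 had 13.6 beside 783 for rad8 in the authors' deposited table of med20Δ. snr79 had 4.12 beside 365 for gpi12 in the same table, and sno52 had 40.6 beside 2229.9 for taf9. The exception was sno20, with 11.5 beside 1.00 for SPBC1921.04c in the authors' deposited table of med20Δ. How reads of the 2 strands were assigned to genes is not stated in any source used here. gpi12 did not pass in the authors' deposited tables, where its log2 fold change was −0.07 in the double mutant and −0.09 in rrp6Δ.

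The files type both U3 genes, whose RNA directs cuts in the pre-rRNA, as snRNA, so they are not among the 51. snu3 had 309.6, 70.97 and 188 in the double mutant, 29.3, 74.2 and 17.01 in rrp6Δ and 3.14, 33.1 and 15.2 in med20Δ, against 1.13, 4.52 and 6.53 in wild type, and rose in the double mutant (log2 fold change 5.59, adjusted p = 0.000776 in the authors' deposited table). snu32 had 3133, 54.5 and 1150.0 in the double mutant, against 1.13, 14.7 and 37.9 in wild type, and did not pass (adjusted p = 0.053 in the authors' deposited table).

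The library that stands apart was also apart for many members. Of the 32 tested, 10 were lowest in that library in all 4 strains and 2, snoU14 and sno12, were highest in it in all 4, beside 13.5% and 16.6% of all 5832 genes tested. The 10 were snoR69b, snoR56, snR30, snoU18, sno52, sno16, snR33, snR92, snR93 and snR98. snR92 and sno52, named here after their values were seen, differed most. snR92 had 1683, 71.8 and 941 in the double mutant, 669, 47.6 and 657 in rrp6Δ and 5.23, 63.7 and 57.2 in med20Δ, against 10.2, 52.03 and 49.6 in wild type. In rrp6Δ and the double mutant, library 2 was near wild type and the other 2 were more than 10 times higher. Its deposited fold was 24.9 in the double mutant (adjusted p = 0.057) and 12.8 in rrp6Δ (adjusted p = 0.107) in the authors' deposited tables. sno52 had 486, 25.1 and 199 in the double mutant, 89.5, 18.1 and 66.1 in rrp6Δ and 20.9, 92.98 and 48.3 in med20Δ, against 20.3, 69.00 and 54.8 in wild type, and did not pass. The part of these libraries in the results was not tested beyond leaving them out: without them limma called 18 members higher and 1 lower in the double mutant, 15 higher in rrp6Δ and 3 higher in med20Δ against wild type. Shares of all genes called without them are not given here, so these counts do not set the members apart from other genes.

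**Figure D5:**
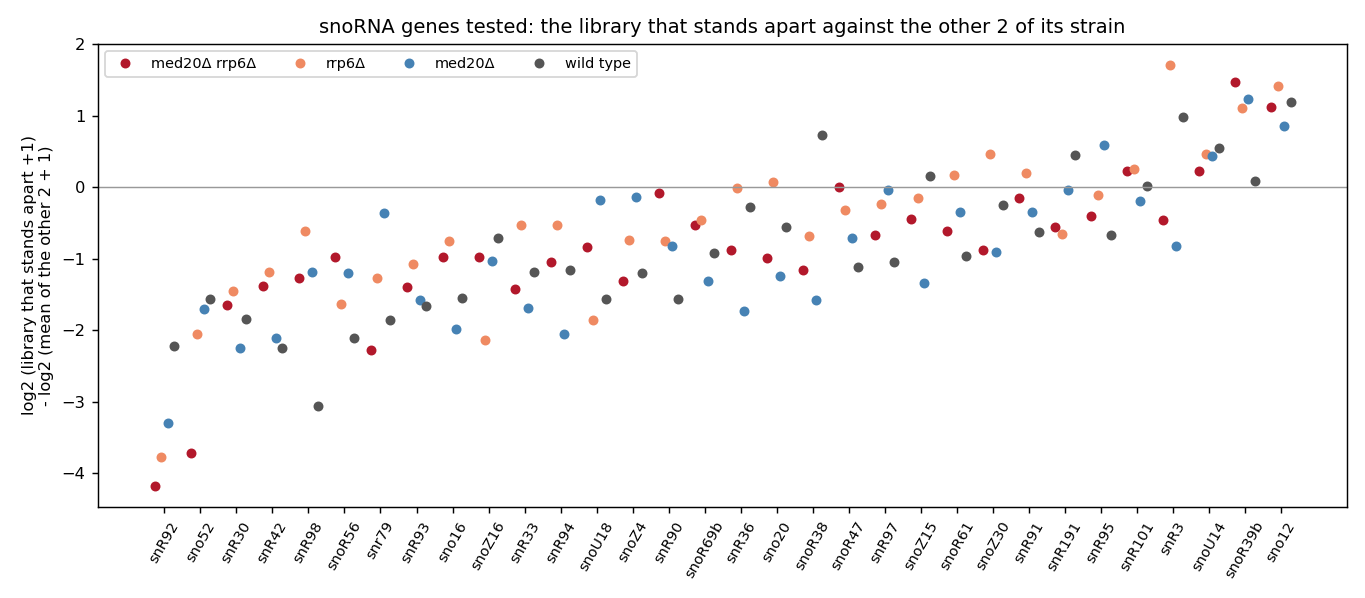
For each of the 32 snoRNA genes tested, the log2 ratio of the library that stands apart to the mean of the other 2 of its strain (1 added to each normalised count), with a point per strain. snR92 and sno52 lie furthest below 0 and sno12 and snoU14 lie above 0 in all 4 strains.

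The members not tested by limma had few counts. They were snR40, snoZ7, snoZ5, snoZ3, snR41, snR70, snR51b, snoU24b, snoR02, snoR54b, snoR58, snoR69, snoR54, snoR68, snoR39a, snR5, snR46, snR96 and snR88. Of these, snoZ5, snR41, snR51b, snoR02, snoR54b, snoR68 and snR5 had 1 count in each wild-type library. The highest level among them was that of snR40 in the double mutant, at 14.2 ± 4.07, against 1.94 ± 1.26 in wild type (SD, n = 3 each), and by DESeq it did not pass there (adjusted p = 0.066 in the authors' deposited table). None of the 19 passed in the authors' deposited tables, and smaller changes in them were not detectable at these counts. The tested members not yet given values were snR191, snoZ4, snoR56, snoZ15, snoR39b, snoZ30, snR90, snR94 and snR97, none of which passed in the authors' deposited tables. The 3 given next were chosen after their values were seen. snR94, an H/ACA member, averaged 245 ± 107 in the double mutant, 272 ± 115 in rrp6Δ, 70.1 ± 65.9 in med20Δ and 91.4 ± 36.7 in wild type, with adjusted p of 0.0723 in the double mutant and 0.0669 in rrp6Δ in the authors' deposited tables. snR90 averaged 113 ± 15.6 in the double mutant, 90.8 ± 41.9 in rrp6Δ, 182 ± 54.00 in med20Δ and 68.9 ± 40.8 in wild type. snoR39b was the only one of the 9 with means below wild type in every mutant, at 15.5 ± 10.8 in the double mutant, 18.6 ± 11.5 in rrp6Δ, 18.9 ± 12.5 in med20Δ and 31.3 ± 4.77 in wild type.

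Of 47 genes listed for snoRNP proteins and RNA processing, 46 were matched. In the double mutant 5 fell, 1 of them the deleted rrp6, and none rose, where 6.71% of all genes in the table fell, so the share was near the background. In rrp6Δ, rrp6 fell and red1 rose, where 1.00% fell and 4.97% rose. In med20Δ none passed, with 1 at an unadjusted p under 0.05. red1, which marks RNAs for the exosome, had a log2 fold change of 1.00 in rrp6Δ (adjusted p = 0.0301 in the authors' deposited table) and 0.65 in the double mutant (adjusted p = 0.245). Beside rrp6, the genes that fell in the double mutant were dis3, an exosome nuclease (log2 fold change −1.17, adjusted p = 0.0123), mtr4, the helicase of the TRAMP complex (−1.12, adjusted p = 0.0162), din1, a partner of the 5′ exonuclease Dhp1 (−1.08, adjusted p = 0.0232), and cbf5, the pseudouridine synthase of H/ACA particles (−0.92, adjusted p = 0.0477), all in the authors' deposited table. In med20Δ these 4 had log2 fold changes of −0.42, −0.58, −0.47 and −0.34 in the authors' deposited table, and none passed. The median of the list was −0.37 in the double mutant, −0.07 in rrp6Δ and −0.14 in med20Δ, beside −0.18, −0.12 and −0.03 over protein-coding genes in the same order.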

How the data were processed

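RNA of 4 strains with 3 samples each was selected with oligo(dT) and made into strand-marked (dUTP) libraries, per the labels' protocols. Per the submitters' processing notes the tools were Bowtie 0.12.7 and DESeq, with no version for DESeq. No source used here gives the genome build, the annotation, the read counter or its strand setting. The files are 3 tables, each of a mutant and wild type. The authors deposited, per the file headers, a mean signal for each strain (counts over size factors, averaged), the fold of mutant over wild type and the log2 of that fold. The deposited p-values were also given by the authors after adjustment over the whole table. There are no replicate columns, and 0 columns of per-sample values were left unmapped.

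Because each deposited mean has 15 digits, it was split into whole counts of its 3 libraries, with means up to 8000 searched. The mean of sno12 in the double mutant, 31375, was over that limit. Its counts were solved separately, with the digits of its deposited fold change as a further constraint. All 6517 means searched in the double mutant, 6526 in rrp6Δ, 6493 in med20Δ and 6483 in wild type were solved, and 19240 of 19240 wild-type splits solved in 2 tables were identical. Simulated means gave 0 wrong splits among 5540 to 5656 searched per strain. They were searched only to a lower limit than 8000, so the simulation covers neither the highest means nor the separate step for sno12. Libraries are numbered by recovered step and are not tied to the labels' replicate letters. The series design names biological replicas, but no label names separate cultures, so the p-values speak only of the spread between samples.

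Calls against wild type are the deposited adjusted p under 0.05. The planned test per replicate needed counts per library, so the double mutant against each single mutant and the interaction used limma 3.58.1 (R 4.3.3) with a mean-variance trend and Benjamini-Hochberg adjustment on log2(normalised count + 1). It took 5832 genes with a mean of at least 10 and all 12 libraries in 1 model, and it understates fold changes of low genes. The limma step was tested on simulated data. Tables were handled with Python 3.11.15. Sequences, places and overlaps come from RefSeq ASM294v3 by systematic ID, and motifs were sought on the sense strand only.

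Named with values are members called in any table, the 5 with the highest deposited wild-type mean, the 3 largest and 3 smallest deposited differences between the double mutant and rrp6Δ where some strain's mean reached 50, the U3, U14 and snR30 genes, and processing factors that were called. The members and lists were chosen with earlier results of these data known. Alternatives were limma on recovered counts for all comparisons, another pseudocount, no filter, other scalings, stricter calls, and leaving out libraries.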

Additional observations from a re-analysis of the deposited data

Results flagged for a closer look

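snoR47, which lies in an intron of fta3, lay on opposite sides of its comparison strain when med20 was deleted in cells without and with rrp6, though neither difference passed. It had 8.48, 9.52 and 10.6 normalised counts in the double mutant, against 21.96, 19.98 and 28.3 in rrp6Δ. It had 44.98, 80.2 and 68.6 in med20Δ, against 15.8, 38.5 and 32.6 in wild type. Every library of the double mutant was below every one of rrp6Δ, and every library of med20Δ was above every one of wild type. Such separation was seen in 13.2% and 10.2% of 6410 genes, in that order. The limma log2 differences were −1.20 (adjusted p = 0.0699) for the double mutant against rrp6Δ and 1.18 (adjusted p = 0.109) for med20Δ against wild type. On the log2 scale the difference of the double mutant from rrp6Δ minus that of med20Δ from wild type was −2.39 (SE 0.54), and it did not pass over all genes tested (limma adjusted p = 0.0999, between 0.124 and 0.325 when 1 library was left out).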

How the results depend on the processing

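No called result changed direction under the alternatives run. Among values that were not called, that of snoU18 in rrp6Δ was -0.028 by limma, against 0.132 as deposited, that of snR98 in med20Δ was -0.077 without the 4 libraries that stand apart, against 0.249 as deposited, and that of snoZ16 in med20Δ lay between -1.26 and 0.27 when 1 library was left out. Run with limma on the recovered counts, 2 members rose in med20Δ against wild type, and 3 without the 4 libraries that stand apart, where the deposited table gives 1. In the double mutant against wild type 1 member fell under both of these settings, where the deposited table gives 0. Against rrp6Δ, 8 members rose in the double mutant, 5 with scaling by total count and 14 without the libraries that stand apart, a setting under which 1 fell. Over all genes tested, 258 rose in that comparison, and 250 with scaling by total count. For all settings with libraries left out, shares over all genes are not given, so those counts speak only of stability. A positive interaction was called for 1 member without the filter on the mean and for 1 without those libraries. The 2 alternatives without those libraries, and the class taken from sequence ends, were chosen after the data were seen. Leaving out 1 library at a time gave 0 to 3 members higher and 0 lower in med20Δ, 9 to 15 higher and 0 to 1 lower in rrp6Δ and 14 to 18 higher and 0 to 1 lower in the double mutant against wild type. The same gave 3 to 9 higher and 0 to 1 lower against rrp6Δ, 12 to 16 higher and 1 lower against med20Δ, and 0 to 1 positive and 0 negative interactions. Of 63 log2 fold changes of named members against wild type, 57 kept direction and side of the threshold by limma, 1 changed sign, 4 came to pass and 1 ceased to pass. Scaling by total count moved the median log2 fold change of all genes tested from -0.07 to 0.17 in the double mutant and from -0.06 to 0.17 in rrp6Δ against wild type, and from -0.08 to 0.14 for the double mutant against med20Δ. The split over all genes tested was then 1167 higher and 494 lower, 491 and 45, and 698 and 124 in these comparisons, against 892 and 854, 369 and 101, and 523 and 273. With size factors from protein-coding genes it was 1100 and 567 in the double mutant against wild type, 433 and 68 in rrp6Δ and 647 and 158 against med20Δ. The interaction split was 6 positive and 2 negative with total counts and 9 and 5 otherwise. The cause of these changes was not tested. No paired analysis was possible because the files hold group means, and the libraries recovered from them carry no replicate letter. The 17 members with a mean under 10 in all strains are limited by their low counts, whose cause was not tested.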
